A study of Rattus norvegicus with 6 samples.

Results

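The vacuolar proton pump and the lysosomal enzymes and membrane proteins it serves were examined in rat kidney. A gene was included when exactly 1 gene symbol was assigned to its probe set by the array annotation and that symbol began with Atp6v0 or Atp6v1 or stood on a list of 31 lysosomal genes. These rules found 51 genes on 66 probe sets, out of 14217 named genes on 31042 probe sets. They comprised 20 proton pump subunits, 8 cathepsins and 23 other lysosomal genes, each represented by its probe set of highest mean signal over the 6 arrays. Kidney RNA of 3 congenic rats, strain S.LEW(D1MCO4x1x3Bx1), was compared with kidney RNA of 3 Dahl salt-sensitive (S, SS/Jr) rats, all adult males with 1 array per rat. The congenic strain carries Lewis rat DNA on chromosome 1 in the S background. By design the rest of its genome is that of S, which was not checked here. The S strain is an inbred model of salt-sensitive hypertension. The labels give no diet, age in weeks or blood pressure, and RNA came from kidney tissue, so fewer cells of a type and less RNA per cell cannot be told apart. By its title the series belongs to work on Adamts16 variants in inherited hypertension. Values are scaled array signals on a linear scale, differences are log2 of congenic minus S, and signals of different probe sets were not compared with each other. Sums of cell type markers add linear signals of several probe sets, so the brightest weigh most.

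The vacuolar proton pump is a rotary machine that uses ATP to move protons into lysosomes and endosomes. Its V1 sector, in the cytosol, splits ATP, and its V0 sector, in the membrane, carries the protons. Acid keeps the hydrolases of the lysosome active, and these break down proteins, glycans and lipids. In the kidney, proximal tubule cells feed lysosomes with protein taken up from the filtrate, and intercalated cells of the collecting duct place the pump in the plasma membrane to secrete acid into urine.

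No member passed the adjusted threshold of 0.05 in limma: 0 of 50 members tested were called, where 0% of the 15521 probe sets tested were called. The smallest adjusted p among them was 0.261, that of Gm2a. At unadjusted p below 0.05 stood 8 members, Gm2a, Ctsc, Ctsa, Mcoln1, Man2b1, Ctsh, Lamp2 and Atp6v0a4, and all 8 had higher congenic signals. In this direction 5.55% of 9334 named genes tested and 4.72% of the probe sets tested met the same limit, while in the lower direction 4.84% of named genes did. Of all 51 members, 35 had a log2 difference above 0 and 16 one below 0, with a median of 0.07, against a median of 0.01 and 52.4% higher over the named genes tested. The 3 congenic values lay all above the 3 S values for 11 tested members and all below for 1, Asah1, where 9.59% and 7.45% of named genes did so. The share all above rose with mean signal: 6.12% of named genes below 1000, 14.4% from 1000 to 5000 and 19.6% above 5000. In these ranges 1 of 12, 4 of 18 and 6 of 20 members lay all above. No member differed by 1.5-fold among the 50 tested, where 1.49% of probe sets tested did. With single rats left out, members at unadjusted p below 0.05 in limma numbered 2 without congenic replicate 2 and 4 (3 higher and 1 lower) without congenic replicate 3. There were 9 without congenic replicate 1, 10 without S replicate 1, 3 without S replicate 2 and 5 without S replicate 3, in place of 8. The count was also 5 after quantile normalisation (4 higher and 1 lower), 3 after cyclic loess and 17 with arrays centred on their median. It was 4 with a block for the number that opens the array title and 12 with array weights (11 higher and 1 lower).

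**Figure D1:**
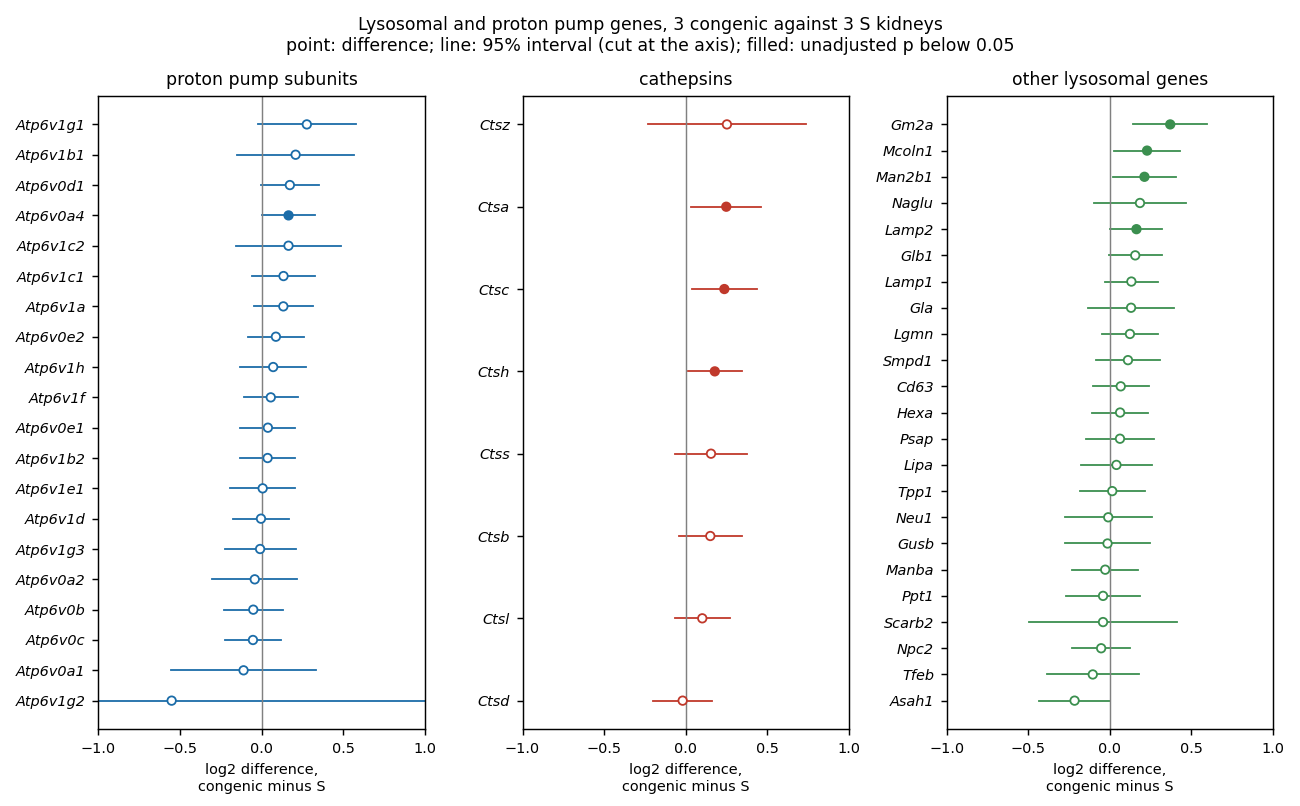
Log2 difference between congenic and S kidneys for each of the 51 genes, in panels for the 20 proton pump subunits, 8 cathepsins and 23 other lysosomal genes. Points are differences, lines are 95% intervals cut at the axis, and filled points mark unadjusted p below 0.05; Gm2a had the highest difference, 0.37, and 7 of the 8 cathepsins lay above 0.

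Gm2a, which encodes the activator protein that presents ganglioside GM2 to its hydrolase, had the largest difference among the members tested. Signals of Gm2a were 1109, 1082 and 1049.7 in the congenic kidneys, against 764, 861 and 886 in the S kidneys. All 3 congenic rats stood above all S rats. The log2 difference was 0.37 (SE 0.11, 95% interval 0.14 to 0.60), a fold of 1.29, with unadjusted p = 0.00341 and adjusted p = 0.261 in limma. Its direction held in each of 15 alternatives, where its difference ran from 0.31 to 0.44. Some of these could not change the difference: dropping the filter, dropping the variance trend, and averaging probe sets, as Gm2a has 1. Hexa, which encodes the alpha subunit of the hexosaminidase that acts with this activator, had a difference of 0.06.

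Mcoln1 encodes the lysosomal calcium channel TRPML1, known to release calcium when nutrients are scarce. Mcoln1 had signals of 1270.2, 1302 and 1276 in the congenic kidneys, against 1085, 1104 and 1093 in the S kidneys. The rats within each strain lay close together and the strains did not overlap. The log2 difference was 0.23 (SE 0.09, 95% interval 0.03 to 0.43), a fold of 1.17, with unadjusted p = 0.0275 and adjusted p = 0.42 in limma. The difference was 0.22 to 0.24 with any 1 rat left out, with unadjusted p between 0.0476 and 0.0671 in limma.

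Among the 8 glycosidases, which trim sugars from glycoproteins and glycolipids, 5 had differences above 0 and the group median was 0.10. Man2b1 encodes the acid alpha-mannosidase. Man2b1 read 3160.1, 3017 and 3044 in the congenic kidneys, against 2871, 2342 and 2773 in the S kidneys. The congenic values were all above the S values, and S replicate 2 was the lowest. The log2 difference was 0.21 (SE 0.09, 95% interval 0.02 to 0.41), a fold of 1.16, with unadjusted p = 0.034 and adjusted p = 0.447 in limma. Without S replicate 2 the Man2b1 difference was 0.12 with unadjusted p = 0.191 in limma, and its mean over both probe sets of the gene, one of them below the filter, was -0.0031. For Glb1, the beta-galactosidase gene, signals were 7347, 7492 and 7120.5 in the congenic kidneys, against 6941, 6182 and 6598 in the S kidneys. The strains again did not overlap, and the difference was 0.16 with unadjusted p = 0.0586, or 0.10 with cyclic loess. Naglu, needed for heparan sulphate breakdown, had 0.19 and the alpha-galactosidase A gene Gla had 0.13. The remaining 4 glycosidases lay close to 0, with Hexa at 0.06, the sialidase gene Neu1 at -0.0091, the beta-glucuronidase gene Gusb at -0.01 and the beta-mannosidase gene Manba at -0.03.

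The 7 genes of lipid hydrolysis and lipid binding had differences on either side of 0. Asah1, the acid ceramidase gene, was the single member with all congenic values below all S values. Asah1 read 1305, 1116 and 1395 in the congenic kidneys, against 1476, 1458 and 1477 in the S kidneys. The 3 S rats gave almost the same signal, and congenic replicate 2 was the lowest rat. Its difference was -0.22 (SE 0.10) with unadjusted p = 0.0533 in limma, and was -0.12 with unadjusted p = 0.258 without congenic replicate 2. A second Asah1 probe set had -0.26 with overlapping strains. For Npc2, a carrier of cholesterol in the lysosome, signals were 4541, 4131 and 4461 in the congenic kidneys, against 4953, 4371 and 4312 in the S kidneys. The strains overlapped and the difference was -0.05. Psap, the precursor of the saposin activators, had 0.06, the acid sphingomyelinase gene Smpd1 0.11, the acid lipase gene Lipa 0.04 and the palmitoyl thioesterase gene Ppt1 -0.04. The tripeptidyl peptidase gene Tpp1 and the legumain gene Lgmn, an asparaginyl endopeptidase, had 0.02 and 0.12.

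Of the 5 genes for lysosomal membrane proteins, 4 had differences above 0. Lamp2 encodes an abundant glycoprotein of the limiting membrane that takes part in chaperone-mediated autophagy. Signals of Lamp2 were 10161, 10918 and 10739.6 in the congenic kidneys, against 9084, 9455 and 9868 in the S kidneys. No congenic rat overlapped the S rats. In limma the difference of 0.16 (SE 0.07, 95% interval 0.0045 to 0.32), a fold of 1.12, had unadjusted p = 0.0447 and adjusted p = 0.472. Lamp2 had 0.10 with quantile normalisation (unadjusted p = 0.14 in limma) and with cyclic loess (unadjusted p = 0.168), and 0.08 as the mean over both of its probe sets. For Lamp1, the related membrane glycoprotein gene, signals were 10763, 10816 and 10683 in the congenic kidneys, against 10588, 9397 and 9486 in the S kidneys. The congenic rats were nearly level with each other, S replicate 1 was the nearest S rat, and the difference was 0.13 with unadjusted p = 0.103. It was 0.08 with quantile normalisation and 0.07 with cyclic loess. Cd63, a tetraspanin of late endosomes, had 0.07 and Scarb2, the receptor that brings glucocerebrosidase to lysosomes, had -0.04.

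**Figure D2:**
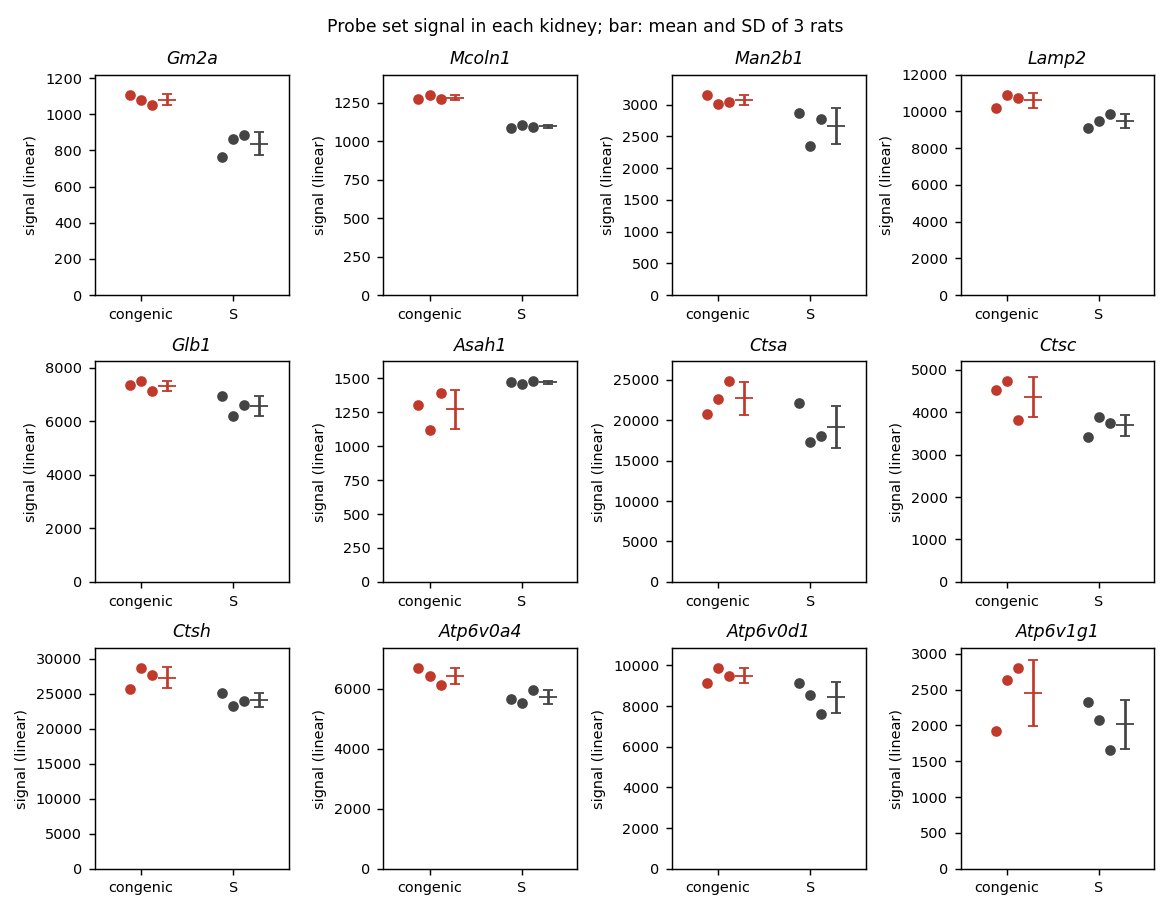
Probe set signal (linear, axis from 0) of 12 members in each of the 3 congenic and 3 S kidneys, with the mean and SD of each strain beside the points. Gm2a, Mcoln1, Man2b1, Lamp2, Glb1, Ctsh, Atp6v0a4 and Atp6v0d1 were higher in each congenic kidney than in each S kidney, Asah1 was lower in each, and Ctsa, Ctsc and Atp6v1g1 overlapped.

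Cathepsins, the proteases of the lysosome, had the highest median of the 3 groups, 0.17, with 7 of 8 members above 0. The 6 cysteine cathepsins were all above 0 as reported, from 0.10 to 0.25, but Ctsl lay near 0 under quantile normalisation and cyclic loess and Ctsz was at -0.02 without congenic replicate 3. Unadjusted p was below 0.05 in limma for 3 of the 8, Ctsc, Ctsa and Ctsh, all with higher congenic signals. In this direction 5.55% of named genes tested met the limit, and 13.8% of those with signals above 5000. Of the 5 cathepsins above 5000, 2 met it, against 1 with quantile normalisation and 0 with cyclic loess. Ctsa encodes a serine carboxypeptidase that also protects the sialidase and beta-galactosidase of the lysosome. Signals of Ctsa were 20732, 22610.3 and 24792 in the congenic kidneys, against 22179, 17266 and 18086 in the S kidneys. S replicate 1 lay among the congenic rats, and the other S rats below them. The log2 difference was 0.25 (SE 0.10, 95% interval 0.04 to 0.46), a fold of 1.19, with unadjusted p = 0.0253 and adjusted p = 0.414 in limma. Leaving out S replicate 1 gave 0.36 for Ctsa, and leaving out S replicate 2 gave 0.18.

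Ctsc, a dipeptidyl peptidase gene whose product activates serine proteases of immune cell granules, read 4519, 4724 and 3826 in the congenic kidneys, against 3414, 3896 and 3750.4 in the S kidneys. Congenic replicate 3 overlapped the S rats and the other congenic rats stood above them. The log2 difference was 0.24 (SE 0.09, 95% interval 0.04 to 0.44), a fold of 1.18, with unadjusted p = 0.0226 and adjusted p = 0.404 in limma. A second Ctsc probe set had a difference of 0.08. Ctsh, an aminopeptidase gene, read 25636, 28643 and 27621 in the congenic kidneys, against 25120.4, 23269.7 and 23928 in the S kidneys. The strains did not overlap. The log2 difference was 0.18 (SE 0.08, 95% interval 0.01 to 0.35), a fold of 1.13, with unadjusted p = 0.0378 and adjusted p = 0.457 in limma.

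The remaining cathepsins had wider overlap or smaller differences. Ctss, a protease of antigen-presenting cells, read 1235, 1219 and 1213 in the congenic kidneys, against 983, 1127 and 1194 in the S kidneys. The congenic rats were nearly equal and S replicate 3 came close to them, with a difference of 0.16, or 0.08 without S replicate 1. For Ctsz, a carboxypeptidase gene, signals were 276, 239.5 and 452 in the congenic kidneys, against 263, 231 and 290.4 in the S kidneys. Congenic replicate 3 alone stood apart: the difference was 0.25, and it was -0.02 without that rat. Ctsb and Ctsl encode the major endopeptidases of the lysosome. Ctsb had signals of 20206, 21723 and 23278 in the congenic kidneys, against 21570.3, 17543 and 19723 in the S kidneys. Ctsl read 29917, 31693 and 31993 in the congenic kidneys, against 30438, 27060.4 and 29798 in the S kidneys. Their differences were 0.15 and 0.10, and the strains overlapped for each. Ctsb had 0.07 with quantile normalisation, with cyclic loess and without S replicate 2, and 0.10 without congenic replicate 3. Ctsl had 7.0e-04 with quantile normalisation, 0.0086 with cyclic loess and 0.05 without S replicate 2. The aspartic protease gene Ctsd read 8441, 7036 and 7661 in the congenic kidneys, against 8102, 7318 and 7972 in the S kidneys. Its strains overlapped across their whole range, with a difference of -0.02.

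Markers of cell types rich in cathepsins were read on the same arrays. All 14 macrophage markers had a probe set, 13 were tested, 9 of these higher and 4 lower, and their summed signal was 10752 to 12533 in congenic kidneys, against 9869 to 10923 in S kidneys. Lyz2 gave the largest part of this sum, with 5160, 5941 and 6686 in congenic kidneys, against 5654, 5376 and 4971 in S kidneys. Of the 13 tested, Cd68 (0.63), Fcer1g (0.24) and C1qb (0.36) had unadjusted p below 0.05 in limma with non-overlapping strains. Among all probe sets tested, 10.3% met this limit in either direction. The 4 lower markers were Ptprc at -0.35 (unadjusted p = 0.137 in limma), Csf1r at -0.07, Adgre1 at -0.0066 and Mrc1 at -4.3e-04. Cd163, below the filter on low signals, had -0.85. The 12 proximal tubule markers were all tested, 9 were higher with a median of 0.11, and none had unadjusted p below 0.05 in limma. All but Slc5a2 had mean signals above 5000, where 71.2% of all probe sets tested were higher with a median of 0.06. The sum of the 12 markers was 215324 to 240288 in congenic kidneys, against 196448 to 224139 in S kidneys. Slc3a1, Miox and Slc34a1 were the brightest of the 12 and weigh most in it. Among 7 markers of other nephron segments and the glomerulus, 4 were higher and 3 lower with a median of 0.04. Umod had 0.25 and Slc12a1 -0.26 with unadjusted p below 0.05 in limma. Slc12a3 and Avpr2 had -0.15 and -0.18, and Aqp2, Nphs1 and Calb1 had 0.12, 0.12 and 0.04. Detection calls are not given, so a signal above 0 does not show that a marker was expressed. The part of these cell types in the cathepsin and hydrolase values was not tested.

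The 20 proton pump subunits had a median difference of 0.05, with 13 above 0 and 7 below 0, and 11 of them within 0.1 of 0. Of the 19 tested, 1 had unadjusted p below 0.05 in limma with higher congenic signals, where 5.55% of named genes tested did. This was Atp6v0a4. It encodes the a4 subunit of the proton path, the isoform of intercalated cells whose mutation causes renal tubular acidosis in humans. Atp6v0a4 had signals of 6686, 6432 and 6146 in the congenic kidneys, against 5665, 5534 and 5978 in the S kidneys. All congenic values were above all S values. In limma the difference of 0.17 (SE 0.08, 95% interval 0.0033 to 0.33), a fold of 1.12, had unadjusted p = 0.0461 and adjusted p = 0.473. Among the other kidney-enriched isoforms, Atp6v1b1, whose mutation causes the same human disease with deafness, had 0.21. Atp6v1c2 had 0.17, and Atp6v1g3 lay near 0 at -0.0091 (SE 0.10). For Atp6v1b1, signals were 541, 362 and 504 in the congenic kidneys, against 394, 383 and 424 in the S kidneys. Congenic replicate 2 lay below the S rats and the other congenic rats above them. The Atp6v1b1 difference was 0.39 without congenic replicate 2 and 0.09 without congenic replicate 1.

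In the V0 sector, 4 of 8 subunits were above 0 and 4 below, with a median of -0.0016. Atp6v0d1, which couples the rotating ring to the V1 sector, read 9121, 9857 and 9464 in the congenic kidneys, against 9119, 8539 and 7621 in the S kidneys. The lowest congenic rat and the highest S rat were nearly equal, and the difference was 0.17 with unadjusted p = 0.0538. Atp6v0d1 had 0.10 without S replicate 3, 0.10 with quantile normalisation and 0.11 with cyclic loess. Atp6v0e2, a small membrane subunit gene, read 2778, 2773 and 2792 in the congenic kidneys, against 2704, 2650.0 and 2502 in the S kidneys. The congenic rats lay within a narrow range just above S replicate 1, with a difference of 0.09. The ubiquitous a subunit gene Atp6v0a1 read 499.6, 326 and 513 in the congenic kidneys, against 462, 369 and 615 in the S kidneys. The strains overlapped, and the difference of -0.11 was 0.08 without S replicate 3 and 0.10 without congenic replicate 2. For Atp6v0c, the proton-carrying ring subunit, signals were 14309.9, 14285 and 14416 in the congenic kidneys, against 16456, 14239 and 14038 in the S kidneys. S replicate 1 was the highest rat, and the difference of -0.05 was 0.02 without it. Atp6v0a2, Atp6v0b and Atp6v0e1 had -0.04, -0.05 and 0.04. Second probe sets of Atp6v0a2 and Atp6v0b had 0.16 and 0.08, with overlapping strains.

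In the V1 sector, 9 of 12 subunits were above 0 with a median of 0.06, and 0 of 11 tested had unadjusted p below 0.05 in limma. Atp6v1g1, a subunit of the peripheral stalk, had the highest difference of the pump genes. Signals of Atp6v1g1 were 1923, 2638 and 2797 in the congenic kidneys, against 2324, 2075 and 1652 in the S kidneys. Congenic replicate 1 lay among the S rats, and the difference of 0.28 (unadjusted p = 0.0683) was 0.44 without that rat and 0.14 without S replicate 3. The catalytic subunit gene Atp6v1a had 0.13, its ubiquitous partner Atp6v1b2 0.04, and Atp6v1c1, whose product governs joining of the sectors, 0.13. The rotor subunit genes Atp6v1d and Atp6v1f had -0.0037 and 0.06, the stalk subunit gene Atp6v1e1 0.0067 and the regulatory subunit gene Atp6v1h 0.07. Atp6v1g2, a neuronal isoform, was the 1 member below the filter on low signals. Atp6v1g2 read 96.9, 51.2 and 17.7 in the congenic kidneys, against 95.4, 32.3 and 89.6 in the S kidneys. Its values spread widely in either strain, and the difference of -0.55 in the fit without the filter had a 95% interval of -2.49 to 1.39.

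Markers of intercalated cells, the site of the plasma membrane pump, were read in the same kidneys. Of 10 listed, 8 had a probe set, and their summed signal was 13878 to 15007 in congenic kidneys, against 13923 to 14666 in S kidneys. Car2 gave the largest part of this sum, with 7969, 8053 and 8248 in congenic kidneys, against 8113, 8208 and 8029 in S kidneys. Of these 8, 6 were tested, 3 of them higher and 3 lower with a median of 0.05. Foxi1, the transcription factor of these cells, had 0.11, the anion exchanger genes Slc4a1 and Slc26a4 had -0.08 and 0.14, and the ammonia transporter gene Rhcg had 0.19. The carbonic anhydrase genes Car12 and Car2 had -0.41 and -0.0049, and Car12 had unadjusted p = 0.0763 in limma. Aqp6, an intracellular water channel gene below the filter, had -1.17 with unadjusted p = 0.0182 in the limma fit without the filter, from signals of at most 75.0 in congenic kidneys, against at least 115 in S kidneys.

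Tfeb encodes the transcription factor known as a master regulator of lysosomal genes, which binds an E-box with the letters CACGTG in their promoters. Tfeb had signals of 934, 779 and 692 in the congenic kidneys, against 760.1, 900.0 and 914 in the S kidneys. The strains overlapped, with a difference of -0.10 and unadjusted p = 0.443. RefSeq promoter windows of GRCr8, from 250 bases before to 50 after the annotated start, were found for 42 of the 51 members. CACGTG, which reads the same on both strands, was present in 7 of these 42 (16.7%), against 6.65% of 27457 windows of the same length. The longer TCACGTGA, which contains CACGTG, was present in 5 of 42 (11.9%), against 0.867% of all windows, and the full CLEAR element of 10 letters, which contains both, in 0 of 42, against 0.277%. Of the 16 pump subunits with a window, 2 held TCACGTGA, as did 1 of 7 cathepsins and 2 of 19 other lysosomal genes.

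Stretches of 6 windows are shown 5′ to 3′ in the direction of the gene, the first 5 because they hold TCACGTGA and the last because its gene had the largest difference and its window held no CACGTG. Capitals mark CACGTG, or TCACGTGA where the longer match is present.
Atp6v0d1 (GRCr8 chr19:50357249-50357338, minus strand): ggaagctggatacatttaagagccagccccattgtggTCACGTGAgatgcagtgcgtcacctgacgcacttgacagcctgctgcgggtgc
Mcoln1 (GRCr8 chr12:6358198-6358281, plus strand): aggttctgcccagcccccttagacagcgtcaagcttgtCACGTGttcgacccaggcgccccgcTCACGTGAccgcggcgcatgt
Lamp1 (GRCr8 chr16:83075064-83075253, minus strand): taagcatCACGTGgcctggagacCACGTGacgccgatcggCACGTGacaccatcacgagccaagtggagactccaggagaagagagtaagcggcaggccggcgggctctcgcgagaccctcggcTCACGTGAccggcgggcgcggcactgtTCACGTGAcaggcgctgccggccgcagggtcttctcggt
Ctsd (GRCr8 chr1:206968822-206968861, minus strand): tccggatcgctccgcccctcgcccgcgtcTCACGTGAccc
Atp6v0e1 (GRCr8 chr10:17007115-17007142, minus strand): gcgcgccggTCACGTGAgcctctgttga
Gm2a (GRCr8 chr10:39719819-39719918, plus strand): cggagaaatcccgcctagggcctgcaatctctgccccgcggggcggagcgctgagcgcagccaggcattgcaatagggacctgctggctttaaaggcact
In Atp6v0d1 the CACGTG began at position -52 counted from the annotated start, in Mcoln1 at -22 and 5, and in Lamp1 at -183, -167, -150, -65 and -38. In Ctsd one began at -10, shown here, and another at -157, and in Atp6v0e1 it began at 25, after the start. The 5 members with TCACGTGA had differences of 0.17 (Atp6v0d1), 0.23 (Mcoln1), 0.13 (Lamp1), -0.02 (Ctsd) and 0.04 (Atp6v0e1). Ctsd, the only one below 0, had SE 0.08 and ran from -0.09 to 0.05 over the 15 alternatives. Glb1 and Cd63 held CACGTG alone, at -100 and -190. A match of letters is a description and was not tested as a binding site, and annotated starts may differ from those used in the kidney.

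Lysosomal genes outside the 51 members were read from a further list of 42, of which 32 had a probe set and 29 were tested. Among those tested, 18 were higher and 11 lower with a median of 0.06, and 0 were called at the adjusted threshold. At unadjusted p below 0.05 in limma stood 6, 4 higher and 2 lower. In either direction 10.3% of all probe sets tested met this limit. Entpd4, a nucleotide phosphatase gene, read 1596, 1684 and 1677 in the congenic kidneys, against 1329, 1440.1 and 1403 in the S kidneys. The strains did not overlap, with a difference of 0.25 and adjusted p = 0.362 in limma. Slc17a5, the sialic acid exporter of lysosomes, had 0.22, and Cln8, a transmembrane protein gene whose human counterpart is mutated in a ceroid lipofuscinosis, had -0.28. The accessory and assembly genes of the pump gave 7 higher and 8 lower of 15 tested, with a median of -0.0065 and 1, the assembly chaperone gene Vma21 at -0.48, below unadjusted p of 0.05. Atp6ap2, the pump accessory protein also known as the prorenin receptor, had -0.0065, and Oxr1, an oxidation resistance gene, had 0.23.

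Genes that sort enzymes to lysosomes gave 8 higher and 9 lower of 17 tested, with 0 at unadjusted p below 0.05 by limma. Among them the mannose-6-phosphate receptor genes M6pr and Igf2r had -0.02 and -0.07, and the 3 of smallest p were Ap1m1 (0.22), Sort1 (-0.17) and Vps29 (-0.09). The cathepsin inhibitor genes Cst3 and Cstb had 0.10 and 0.05. Of the 18 genes of lysosomal signalling and transcription, 8 were higher and 10 lower. Unadjusted p was below 0.05 in limma for 3, where 10.3% of all probe sets tested met this limit in either direction. Congenic values lay all above the S values for 2 of the 18 and all below for 3, where 9.59% and 7.45% of named genes did so. Zkscan3, a repressor of lysosomal and autophagy genes, read 592, 564 and 436 in the congenic kidneys, against 690.4, 778 and 743 in the S kidneys. All congenic values were below all S values, with a difference of -0.48 and adjusted p = 0.268 in limma. Lamtor5, a subunit of the Ragulator complex that anchors mTORC1 to the lysosome, read 6539, 6619 and 6997 in the congenic kidneys, against 5210.2, 5878 and 5689 in the S kidneys. The congenic rats were all above the S rats, with a difference of 0.27 and adjusted p = 0.276 in limma. Fnip1, a folliculin partner gene, had -0.28, and the Tfeb relatives Tfe3 and Mitf had 0.19 and -0.05.

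Further probe sets gave a check within genes. Of the members, 14 had 15 further probe sets, and 9 of these 15 had the sign of the one reported. The second probe sets of Lamp2 and Ctsl had -0.0041 and 0.02, that of Atp6v1a had 0.10 and that of Atp6v1g3 had -0.26. Those of Atp6v0a2, Atp6v0b and Atp6v1b2 had 0.16, 0.08 and -0.04, each opposite in sign to the one reported. The further Man2b1 and Lgmn probe sets had -0.22 and -0.56, and 2 further Lamp1 probe sets had 0.20 and 0.90, all 4 below the filter on low signals. None of the 15 separated the strains. Gm2a, Mcoln1, Ctsa, Ctsh and Atp6v0a4 had 1 probe set each. The gene table lists pseudogenes of Atp6v0c, Atp6v1a, Atp6v1e1 and Atp6v1g1, and whether their transcripts reach these probes was not tested.

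Signal strength moved with the direction of the members. Of the 50 members tested, 20 had a mean signal above 5000, and of these 17 had a difference above 0, with a median of 0.11. Of all 827 probe sets tested with such signals, 71.2% were above 0 with a median of 0.06, against a median of -0.04 for the 10699 below 1000. At unadjusted p below 0.05 with higher congenic signals stood 4 of these 20 members (20.0%), against 13.8% of the 622 named genes in the same range. The probe sets above 5000 had median deviations from their 6-array means of -0.01, 0.06 and 0.05 in congenic replicates 1 to 3, against -0.0058, -0.05 and -0.03 in S replicates 1 to 3. Cathepsins had -0.0016, 0.08 and 0.10 in the congenic rats, against -0.0067, -0.15 and -0.04 in the S rats, and S replicate 2 lay below the mean for 8 of 8. Pump subunits had -0.03, 0.07 and 0.05 in the congenic rats, against 0.01, -0.06 and -0.04 in the S rats. The other lysosomal genes had 0.03, 0.07 and 0.06 in the congenic rats, against 0.0082, -0.08 and -0.04 in the S rats.

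**Figure D3:**
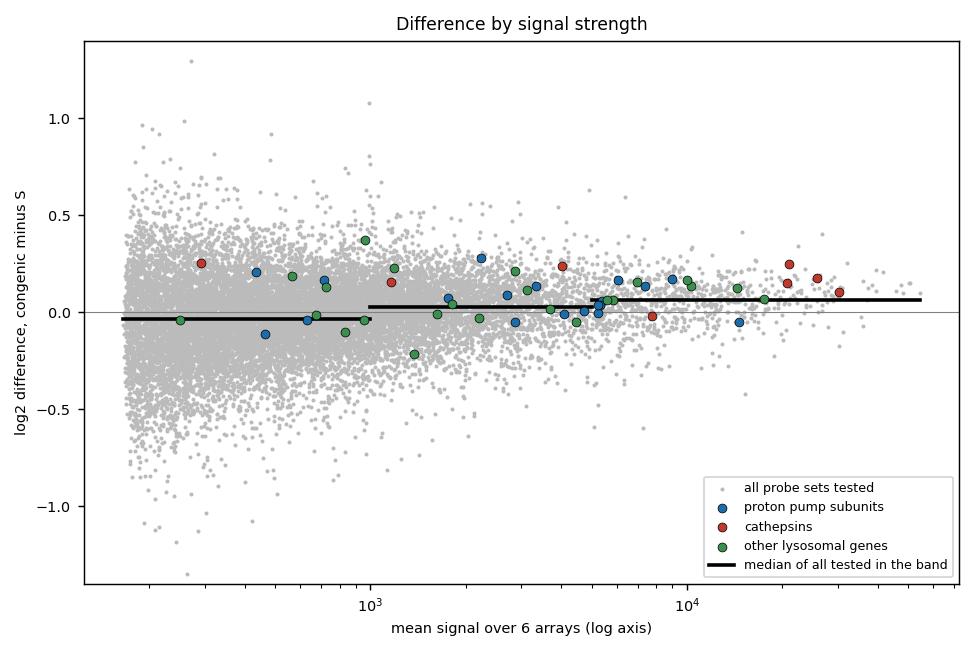
Log2 difference against mean signal over 6 arrays (log axis) for all 15521 probe sets tested (grey) and the 50 tested members (coloured by group). Black lines are the medians of all tested probe sets below 1000, from 1000 to 5000 and above 5000, which were -0.04, 0.03 and 0.06.

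**Figure D4:**
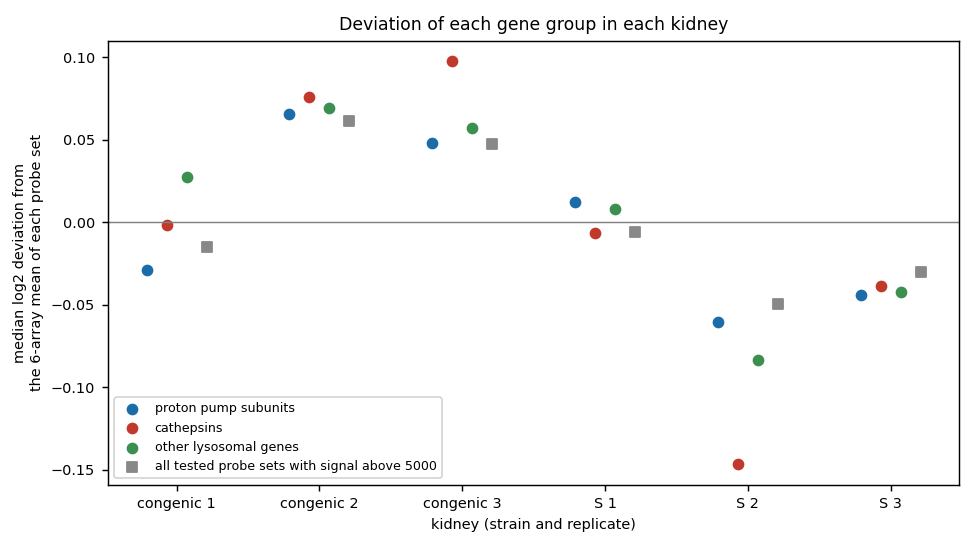
Median log2 deviation of each gene group from the 6-array mean of its probe sets, by kidney, with all 827 tested probe sets of signal above 5000 as grey squares. Congenic replicates 2 and 3 had the highest values and S replicates 2 and 3 the lowest, for the gene groups and for the grey squares alike.

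Scalings that even out the arrays along the range of signals lowered the 3 group medians, but not the differences of dim members. The median of members above 5000 went from 0.11 to 0.04 with quantile normalisation and 0.03 with cyclic loess. That of members below 1000 went from 0.06 to 0.09 and 0.08. The median of the pump subunits was 0.02 after quantile normalisation (12 of 20 higher) and -2.3e-05 after cyclic loess (10 of 20 higher). The cathepsin median was 0.11 and 0.12 under these scalings, with 7 of 8 higher in each, and that of the other lysosomal genes was 0.02 in each, with 16 and 15 of 23 higher. Centring the arrays on their median moved all tested probe sets to a median of 0.06, against -0.0087 as reported, and then 18 of 20 pump subunits, 8 of 8 cathepsins and 21 of 23 others were higher. Gm2a kept 0.37 and Mcoln1 0.22 to 0.23 under quantile normalisation and cyclic loess, and each remained below unadjusted p of 0.05. Ctsh had 0.08 to 0.25 over the 3 scalings and Ctsa 0.16 to 0.32.

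**Figure D5:**
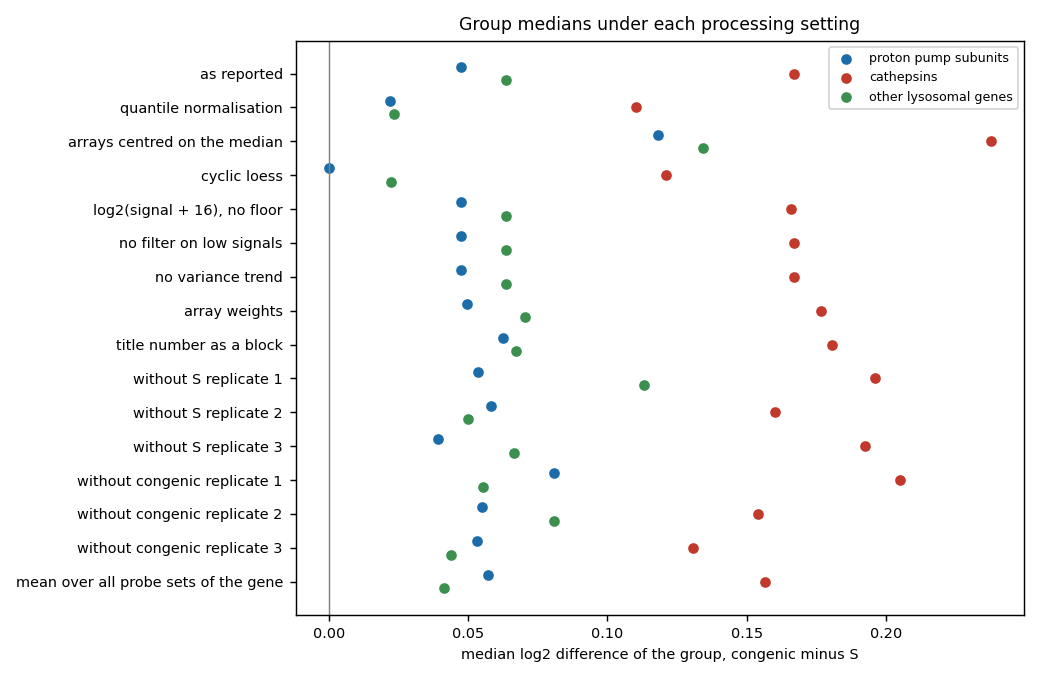
Median log2 difference of the proton pump subunits, cathepsins and other lysosomal genes under the reported setting and 15 alternatives. Dropping the filter or the variance trend cannot change these medians. Cathepsins ran from 0.11 to 0.24, above the other groups in each setting, and the pump median reached 0 with cyclic loess.

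Position on the genome was not used to choose the genes. The 51 members lie on 20 chromosomes, with 5 of them, Ctsc, Smpd1, Tpp1, Ctsd and Lipa, on chromosome 1 as Adamts16 is. The nearest of these to Adamts16 in the RefSeq gene order is Ctsc, with 1335 protein-coding genes between them, and the extent of the Lewis segment is not given in the sources used here. Adamts16 itself, below the filter, had signals of 43.5, 121 and 226 in congenic kidneys, against 147, 92.4 and 125 in S kidneys. Median array signals lay between 163 and 178. Genes are not independent replicates, but over all probe sets the Spearman correlation between arrays ran from 0.947 to 0.962 within a strain and from 0.946 to 0.961 between strains.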

How the data were processed

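Kidney RNA of 3 congenic and 3 S rats was measured on 1-colour Affymetrix arrays, 1 array per rat. The deposited values are linear probe set intensities made with GCOS 1.4, per the submitters' processing notes; their 2% trimmed means are all 500.2, with detection calls and other settings not given in the sources used here. Signals under the 10th percentile (12.3) were set to it before log2. The 15521 of 31042 non-control probe sets with mean log2 signal above the median were fitted with limma 3.58.1 (R 4.3.3; lmFit, eBayes with trend), as congenic minus S, and p-values were adjusted over all of them by Benjamini-Hochberg. The script was tested on simulated data. Probe sets with 1 symbol in the array annotation numbered 20826, those with several 436 and those with none 9780. With 3 rats against 3, an exact two-sided permutation test cannot go below p = 0.1, the value for strains that do not overlap. Precision is limited by having 6 arrays, with a median SE of 0.14 for a log2 difference. Values in every array are given for members with unadjusted p below 0.05, with non-overlapping strains or among the 3 highest and 3 lowest of a group, and for Tfeb. Promoter sequences came from RefSeq (GRCr8). The members, the 6 pathway and 4 marker lists and the tests were chosen with earlier results of these data known.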

Additional observations from a re-analysis of the deposited data

How the results depend on the processing

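No member passed the adjusted threshold under any alternative that gave a test. The count of 8 members at unadjusted p below 0.05 was 5 with quantile normalisation, 17 with arrays centred on the median and 3 with cyclic loess. It was 2 without the variance trend, 6 without the filter, 12 with array weights, 4 with the title number as a block, and 2 to 10 with 1 rat left out. The cathepsin median of 0.17 was 0.11 with quantile normalisation, 0.24 with centred arrays, 0.12 with cyclic loess and 0.13 to 0.21 with 1 rat left out. The pump median of 0.05 was 0.12 with centred arrays, -2.3e-05 with cyclic loess and 0.04 to 0.08 with 1 rat left out. The median of the other lysosomal genes, 0.06, was 0.023 with quantile normalisation, 0.13 with centred arrays, 0.022 with cyclic loess and 0.044 to 0.11 with 1 rat left out. Centring moved the median of all tested probe sets to 0.06 with 62.6% higher, against 48.2% as reported. The causes of these moves were not tested. No paired analysis was possible because the labels give the strains no shared replicate numbers. The block set title numbers below 10 (S replicate 1, congenic replicates 1 and 2) against those above 10, and the labels do not say what the number means.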

Other observations

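Autophagy delivers cytoplasm to the lysosome, and 19 of 21 listed autophagy genes had a probe set and were tested. Of these, 10 were higher and 9 lower with a median of 0.02, and 0 were called at the adjusted threshold. At unadjusted p below 0.05 in limma stood 2, both higher, where 10.3% of all probe sets tested did so in either direction. All congenic values lay above all S values for 9.59% of named genes tested. Atg9a, a membrane protein gene of early autophagosome formation, had signals of 1279, 1198 and 1385 in the congenic kidneys, against 1133, 1047 and 991 in the S kidneys. The strains did not overlap, with a difference of 0.28 and adjusted p = 0.367 in limma. Becn1, which encodes the Beclin 1 subunit of the lipid kinase that starts autophagosomes, had 2274, 2129 and 2005 in the congenic kidneys, against 1774, 1719 and 1922 in the S kidneys. All congenic values were above all S values, with a difference of 0.24 and adjusted p = 0.382 in limma. Atg4b, a protease of the LC3 family, had -0.19 with all congenic values below all S values. The cargo receptor gene Sqstm1 had 0.12 and the late endosome GTPase gene Rab7a had -4.3e-04, each with overlapping strains.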
